A study of Mus musculus with 24 samples.

Results

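The granzymes Gzma, Gzmb and Gzmk and 7 further genes of cytotoxic lymphocytes (Prf1, Nkg7, Ccl5, Cd8a, Cd8b1, Eomes and Klrg1) were examined in lung RNA-Seq data of mice. These 10 genes were chosen by symbol among the 23891 genes of the table, and all 10 were found. RNA came from the left lung lobe of 24 C57BL/6 mice in 4 groups. Adult mice of 20 wk (n = 5) and aged mice of 80 wk (n = 5) were naive, and their labels give the treatment as saline. Other aged mice of 80 wk received house-dust mite (HDM), an inhaled allergen, at 50 µg per dose (n = 7), or the same with the glucocorticoid dexamethasone (Dex), given at 4 mg/kg every 72 h (n = 7). The interval from the final HDM dose to tissue collection was 24 h. The naive aged group is called saline and the naive adult group adult below. No adult mouse was challenged, so the response to HDM could be compared in aged lungs only.

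Cytotoxic lymphocytes are CD8+ T cells, natural killer (NK) cells and related cells that kill a target cell by releasing granules onto it. Perforin opens the target's membrane, and granzymes, which are serine proteases, enter and cleave proteins within. In whole lung tissue these genes are read from a small share of all cells, and a lower level from fewer such cells cannot be told apart from a lower level in each of them.

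No member passed the test in any comparison. Without covariates, the largest differences with age were those of the granzyme genes Gzma and Gzmk, whereas Gzmb differed little. All 5 adult but only 2 saline lungs were female by their levels of Xist and Ddx3y, so age and sex are partly confounded. With sex as a covariate the difference of Gzma was smaller than those of Ccl5 and Eomes, and Gzmk was not fitted. As no adult lung was male, the difference with age in such a fit rests on the 2 female saline lungs against the 5 adult lungs. This holds for every value with age given below with sex as a covariate. Gzmk had no read in any of the 5 adult lungs and reads in all 5 saline lungs. The mean level of Gzma in CPM, read counts scaled to library size, was 10.8 ± 5.16 (SD, n = 5) for adult and 5.19 ± 4.74 (SD, n = 5) for saline lungs. After HDM, with or without Dex, the levels of all 10 members overlapped those of the saline lungs.

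The test was limma on log2(CPM + 1) with Benjamini-Hochberg adjustment over the 17744 genes whose mean reached 1 CPM. It included 8 members, since Gzmk and Klrg1 lay under this mean. In HDM vs. saline, 0 of the 8 members passed an adjusted p of 0.05 by limma and 0 had an unadjusted p under 0.05, whereas 25.3% of all genes tested passed. In HDM + Dex vs. HDM, 0 members passed by limma and 0 had an unadjusted p under 0.05, against 0.964% of all genes that passed. In HDM + Dex vs. saline, 0 members passed by limma and 0 had an unadjusted p under 0.05, against 1.89% of all genes that passed. In aged vs. adult, which set saline against adult lungs, 0 members passed by limma, 3 of the 8 had an unadjusted p under 0.05 and 0.654% of all genes passed. Of all 17744 genes, 6954, 2389, 3766 and 1993 had an unadjusted p under 0.05 by limma in these 4 comparisons, in the same order. Two-sided exact permutation tests of the 10 members gave an unadjusted p under 0.05 for 0 members in HDM vs. saline, 0 in HDM + Dex vs. HDM, 1 in HDM + Dex vs. saline and 1 in aged vs. adult.

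The median log2 fold change of the 8 members was −0.13 in HDM vs. saline, −0.29 in HDM + Dex vs. HDM, −0.29 in HDM + Dex vs. saline and −0.00 in aged vs. adult. The medians of all genes tested were −0.23, 0.03, −0.19 and 0.19 in the same order. The comparisons share their saline, HDM or HDM + Dex lungs, so these values are not independent. After median-of-ratios rescaling of the CPM, which brings the median of all genes near 0, the members' medians were 0.08, −0.32, −0.13 and −0.12. The unadjusted 95% interval of a member's log2 fold change reached 0.46 to 0.85 to either side, so smaller differences could not be told from 0. Larger ones could also fail the adjusted test, as did that of Gzma in aged vs. adult (−1.11, adjusted p = 0.303, limma).

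**Figure D1:**
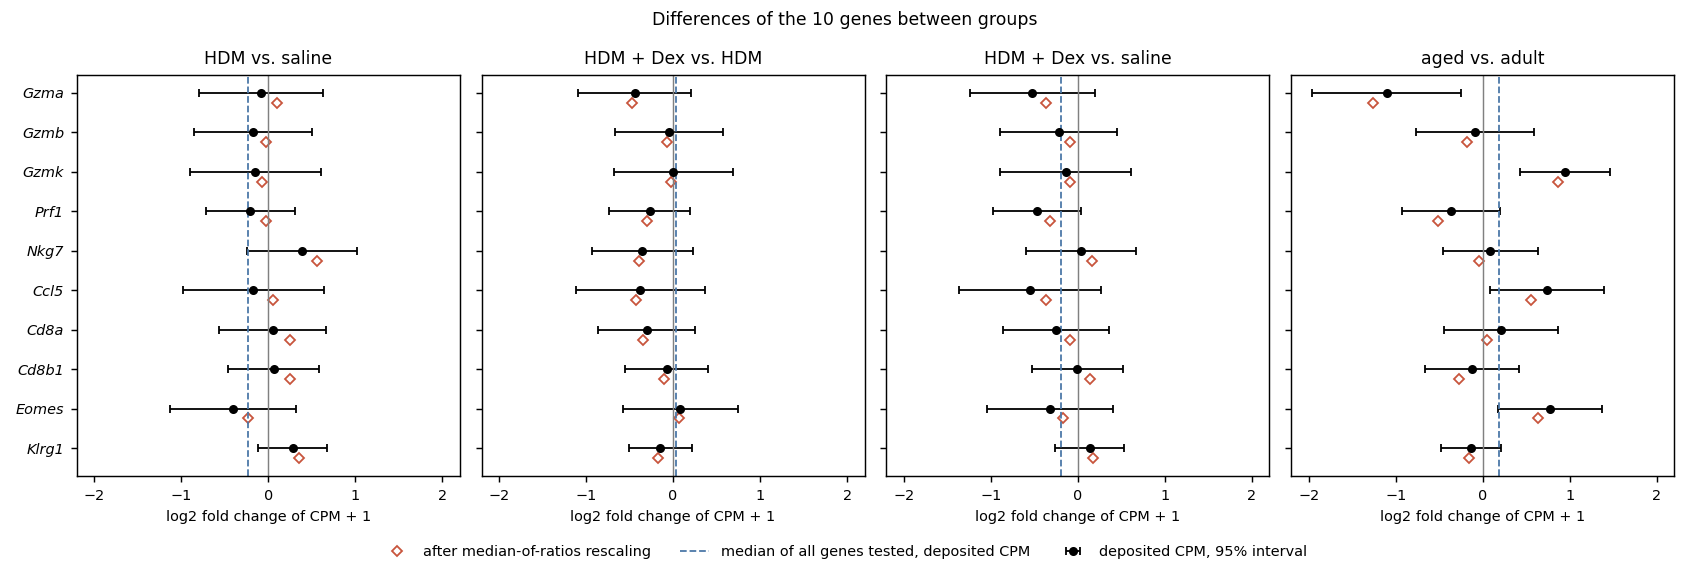
Log2 fold change of CPM + 1 for the 10 genes in 4 comparisons, with the 95% interval from limma (black), the value after median-of-ratios rescaling (open diamonds) and the median of all genes tested (dashed). Every interval of the 3 comparisons among aged lungs includes 0, whereas those of Gzma, Gzmk, Ccl5 and Eomes in aged vs. adult do not before adjustment.

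Several libraries stood apart. Libraries held an estimated 10.1 to 33.1 M reads, and 3 reads amounted to 0.0906 to 0.298 CPM. The 7SL RNA genes Rn7s1 and Rn7s2 took 9.92% to 42.0% of a library, with the highest share in adult replicate 1. HDM replicate 3 had the fewest reads. The summed level of the 10 members was 16.4 to 73.6 CPM, with the highest sums in HDM replicate 6 (73.6 CPM) and HDM + Dex replicate 7 (63.6 CPM). The 9 lung cell genes summed to 4758 to 18409 CPM in the libraries. HDM replicate 6 and HDM + Dex replicate 7 also had the highest sums of 12 core T cell genes in their groups, 254 and 225 CPM. Xist, expressed from the inactive X chromosome, was above the Y-linked Ddx3y in all 5 adult, 2 saline, 2 HDM and 4 HDM + Dex libraries.

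Gzmk encodes granzyme K, a tryptase. It lies on chromosome 13 from 113171608 to 113225908 (GRCm38, minus strand) in the GENCODE annotation, 70626 bases from Gzma, which lies from 113093825 to 113100981 on the same strand. Gzma encodes granzyme A, also a tryptase, and Gzmb on chromosome 14 (56258838 to 56262260, minus strand) encodes granzyme B, which cleaves after aspartate. RefSeq promoters (GRCm38.p6) were found for 7 of the 10 members, and the 250 bases before the start sites of the 3 granzyme genes are shown because the neighbours Gzma and Gzmk had differences of opposite sign with age. The RefSeq starts of Gzmk and Gzmb are not the gene starts of GENCODE given above: the first 30 bases after them were in no GENCODE transcript of the gene, and the Gzmk stretch lies within the GENCODE gene. The same 30 bases were not found for Prf1 and Eomes, and were found for Gzma, Nkg7 and Cd8a. All are written 5′ to 3′ on the minus strand, and capitals mark the letters TCACACC (T-box, the binding motif of the family of Eomes) or TGTGGT (Runx) on either strand.
Gzma, chr13:113100982-113101231: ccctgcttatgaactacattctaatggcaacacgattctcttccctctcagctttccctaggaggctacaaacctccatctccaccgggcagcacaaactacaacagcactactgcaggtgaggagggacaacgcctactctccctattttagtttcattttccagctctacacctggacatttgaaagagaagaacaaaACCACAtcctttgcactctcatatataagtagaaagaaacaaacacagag
Gzmk, chr13:113180966-113181215: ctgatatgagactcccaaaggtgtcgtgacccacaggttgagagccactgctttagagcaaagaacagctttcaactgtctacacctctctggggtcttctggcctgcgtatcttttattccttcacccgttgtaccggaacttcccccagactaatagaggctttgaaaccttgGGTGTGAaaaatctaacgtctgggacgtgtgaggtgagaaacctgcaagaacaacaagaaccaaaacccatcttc
Gzmb, chr14:56262335-56262584: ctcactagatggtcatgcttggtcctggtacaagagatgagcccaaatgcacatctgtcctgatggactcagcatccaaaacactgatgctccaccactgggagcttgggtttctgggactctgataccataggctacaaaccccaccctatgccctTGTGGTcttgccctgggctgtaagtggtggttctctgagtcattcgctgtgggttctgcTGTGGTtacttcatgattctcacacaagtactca

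The T-box letters were in the Gzmk promoter, 75 bases before the start, and in that of Nkg7, 13 bases before it, so 2 of 7 member promoters held them against 3.33% of 32851 promoters. The Runx letters were in 4 of 7, in Gzma 50 bases before the start, in Gzmb at both 93 and 34 bases, in Prf1 at 130 and in Nkg7 at 83 bases, against 14.05% of all promoters. The glucocorticoid receptor half-site AGAACA, searched on both strands, was in 4 of 7 (Gzma, Gzmk, Nkg7 and Cd8a) against 16.1% of all promoters. The AP-1 letters TGANTCA were in 1 of 7, that of Gzmb, against 6.75%. None of the matches shown overlapped another. A match of letters does not show that a factor binds there.

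Gzmk was listed at 0 in each of the 5 adult libraries, in which 3 reads amounted to 0.148 to 0.242 CPM. The 5 saline lungs had 0.247, 1.54, 1.02, 2.41 and 0.198 CPM, which were 4 to 48 reads. The groups did not overlap, and 4 of the 5 saline lungs lay above the highest level that 3 reads give in an adult library. The saline mean was 1.08 ± 0.931 CPM (SD, n = 5), at least 4.47-fold higher than that level, with 3 reads per library taken as the floor. The exact permutation test gave p = 0.00794, the smallest p that 5 against 5 lungs allow, and limma without the filter on low values gave an adjusted p of 0.144.

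Gzmk was the 1 member of 10 without overlap in aged vs. adult, where 2.90% of all genes in the table had none. Only 9 genes (0.0377% of the table) were at 0 in every adult and above 0 in every saline lung. The other 8, named after their values were seen, were Il21, a cytokine of helper T cells, the immunoglobulin variable genes Ighv1-85, Igkv4-80 and Igkv6-13, and Ecel1, Timd2, Olfr102 and Gm5535. Il21 had 0.942 ± 0.680 CPM (SD, n = 5) in saline lungs. The adult lungs were all of the kind with Xist above Ddx3y, and Gzmk was 1.02 and 2.41 CPM in the 2 saline lungs of that kind and 0.247, 1.54 and 0.198 CPM in the other 3. The longest annotated transcript of Gzmk spans Esm1, an endothelial gene on the opposite strand, and whether the authors' counting used strand is not given in the sources used here. Esm1 had 4.92 to 15.7 CPM in the adult lungs in which Gzmk had no read.

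After HDM, Gzmk ranged from 0 to 3.27 CPM with a median of 0.770 CPM, and after HDM + Dex from 0 to 3.87 CPM with a median of 0.706 CPM. The highest values were those of HDM replicate 6 and HDM + Dex replicate 7, and 1 lung of each group was at 0. The log2 fold changes were −0.15 (SE 0.36) in HDM vs. saline and 0.00 (SE 0.33) in HDM + Dex vs. HDM, with unfiltered adjusted p of 0.808 and 0.998 by limma. The second of these had a 95% interval of −0.68 to 0.69.

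**Figure D2:**
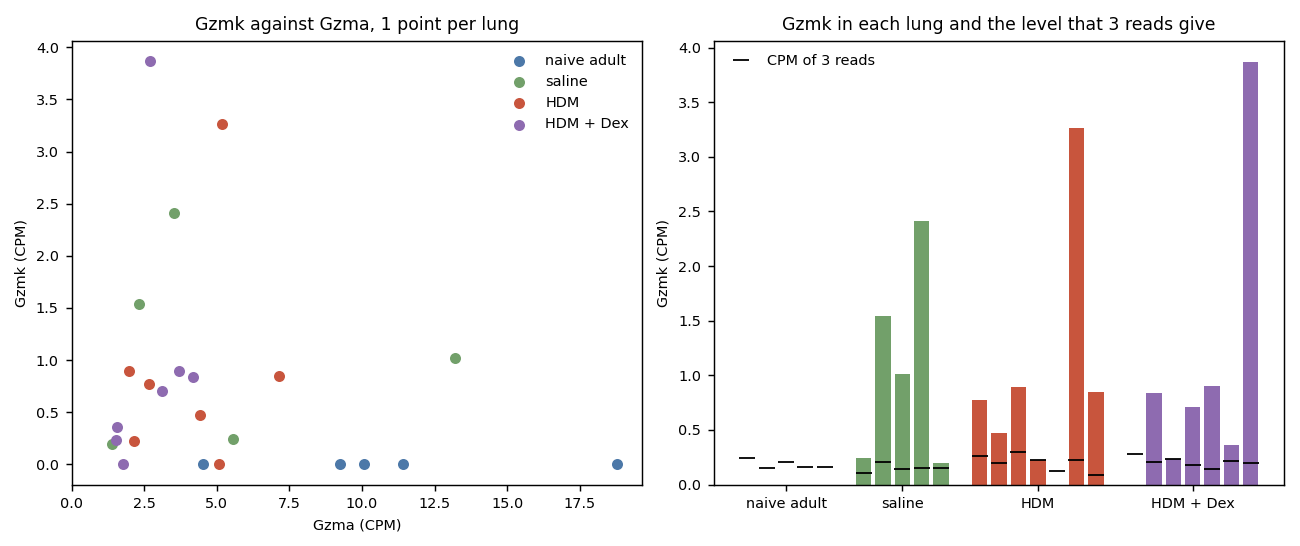
Left, Gzmk against Gzma in CPM, with 1 point per lung; right, Gzmk in each lung in replicate order, with a black dash at the level of 3 reads. The 5 adult lungs lie at 0 for Gzmk and at 4.52 to 18.8 CPM for Gzma, while the saline lungs range from 0.198 to 2.41 CPM for Gzmk.

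Gzma had 4.52, 9.24, 18.8, 10.1 and 11.4 CPM in the adult lungs. The saline lungs had 5.54, 2.31, 13.2, 3.52 and 1.39 CPM. Saline replicate 3 exceeded 4 of the adult lungs, so the groups overlapped, and a saline lung was the lower one in 20 of the 25 pairs. In aged vs. adult the log2 fold change of Gzma was −1.11 (SE 0.40, 95% interval −1.96 to −0.25), with an unadjusted p of 0.0142 and an adjusted p of 0.303 by limma, and an unadjusted p of 0.0873 by the exact permutation test. Without adult replicate 1 it was −1.35 (adjusted p = 0.184, limma), after rescaling −1.26 (adjusted p = 0.142, limma), and −1.56 (adjusted p = 0.128, limma) given a covariate for the 7SL share. All adult but only 2 saline lungs had Xist above Ddx3y, and with this as a covariate for sex the value was −0.44 (SE 0.48, adjusted p = 0.760, limma). That value sets only these 2 saline lungs, with 13.2 and 3.52 CPM, against the adult lungs.

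Among the challenged lungs Gzma ranged from 1.99 to 7.16 CPM with a median of 4.42 CPM after HDM, and from 1.54 to 4.19 CPM with a median of 2.69 CPM after HDM + Dex. From highest to lowest, the means were those of adult, saline, HDM (4.09 ± 1.91 CPM, SD, n = 7) and HDM + Dex lungs (2.65 ± 1.07 CPM, SD, n = 7), and no neighbours in this order differed by the test. The fold change of Gzma on the log2 scale was −0.08 (SE 0.34, adjusted p = 0.877) in HDM vs. saline and −0.44 (SE 0.31, adjusted p = 0.600) in HDM + Dex vs. HDM by limma. The first turned to 0.10 after rescaling.

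Gzmb had 0.565, 2.52, 4.03, 4.22 and 3.66 CPM in adult lungs and 2.29, 1.96, 3.82, 3.92 and 1.14 CPM in saline lungs. It ranged from 0.597 to 5.85 CPM (median 2.14) after HDM and from 0.849 to 3.80 CPM (median 1.89) after HDM + Dex. The groups overlapped almost entirely. Its log2 fold changes were −0.17 (SE 0.33) in HDM vs. saline, −0.05 (SE 0.30) in HDM + Dex vs. HDM, −0.22 (SE 0.33) in HDM + Dex vs. saline and −0.09 (SE 0.32) in aged vs. adult, and the lowest adjusted p by limma was 0.694. The last of these was 0.41 with the covariate for sex and −0.57 with that for 7SL share (adjusted p = 0.737 and adjusted p = 0.396, limma).

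Prf1 encodes perforin, the pore-forming protein of the granules (chromosome 10, 61297833 to 61304680, plus strand). It had 2.18, 4.84, 8.53, 4.11 and 4.62 CPM in adult lungs and 3.28, 2.73, 4.30, 4.68 and 1.98 CPM in saline lungs. It ranged from 0.888 to 5.62 CPM (median 2.49) after HDM and from 1.58 to 3.41 CPM (median 1.86) after HDM + Dex. The HDM + Dex lungs lay low and close together, with a mean of 2.13 ± 0.663 CPM (SD, n = 7) against 3.39 ± 1.11 CPM (SD, n = 5) in saline lungs. This difference had a log2 fold change of −0.47 (SE 0.24), with an unadjusted p of 0.0661 and an adjusted p of 0.261 by limma and an unadjusted p of 0.0429 by the exact permutation test. The HDM + Dex lung was the lower one in 30 of the 35 pairs. In HDM vs. saline the log2 fold change was −0.20 (SE 0.24) and in aged vs. adult −0.37 (SE 0.27), with adjusted p of 0.553 and 0.578 by limma. The second was −0.51 after rescaling and −0.68 with the covariate for 7SL share (adjusted p = 0.305 and adjusted p = 0.273, limma), but −0.0069 with that for sex (adjusted p = 0.997, limma).

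Nkg7 encodes a membrane protein of the granules (chromosome 7, 43437073 to 43438249, plus strand). It was the tested member with the most positive difference after HDM. The saline lungs had 2.05, 3.78, 2.85, 4.68 and 0.989 CPM, and the HDM lungs ranged from 1.94 to 6.61 CPM with a median of 3.63 CPM. The HDM lung was the higher one in 24 of 35 pairs. Its log2 fold change was 0.39 (SE 0.31, 95% interval −0.25 to 1.02, adjusted p = 0.355, limma) and 0.56 after rescaling (adjusted p = 0.128, limma). Once the share of 7SL reads entered as a covariate it was 1.05 and passed (adjusted p = 0.0443, limma), where 1571 of 17744 genes passed. After HDM + Dex the range was 1.39 to 7.28 CPM with a median of 2.16 CPM, and in adult lungs the values were 1.53, 2.96, 2.80, 2.43 and 2.58 CPM. Neither HDM + Dex vs. HDM (−0.35, SE 0.28, adjusted p = 0.651) nor aged vs. adult (0.09, SE 0.26, adjusted p = 0.885) passed by limma.

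Ccl5 encodes the chemokine RANTES, which is stored in granules of CD8+ T cells and attracts other leukocytes (chromosome 11, 83525778 to 83530518, minus strand). Its adult lungs had 2.74, 7.11, 9.08, 6.06 and 5.38 CPM. The saline lungs had 7.73, 9.94, 16.1, 16.7 and 5.10 CPM, and the saline lung was the higher one in 20 of 25 pairs. For Ccl5 in aged vs. adult the log2 fold change was 0.74 (SE 0.31, 95% interval 0.09 to 1.39), with an unadjusted p of 0.0288 and an adjusted p of 0.376 by limma, and an unadjusted p of 0.0952 by the exact permutation test. Without adult replicate 1 it was 0.52 (adjusted p = 0.515, limma) and with the covariate for 7SL share 0.43 (adjusted p = 0.643, limma), while with that for sex it was 1.37 (adjusted p = 0.0932, limma).

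Ccl5 was 4.95 to 20.4 CPM (median 7.64) after HDM and 2.60 to 20.8 CPM (median 6.14) after HDM + Dex. The spread within these groups was wide, since HDM replicates 6 and 7 had 18.6 and 20.4 CPM and HDM + Dex replicate 7 had 20.8 CPM. The log2 fold changes were −0.17 (SE 0.39, adjusted p = 0.770) in HDM vs. saline, −0.38 (SE 0.36, adjusted p = 0.718) in HDM + Dex vs. HDM and −0.55 (SE 0.39, adjusted p = 0.396) in HDM + Dex vs. saline by limma. With sex, read from Xist and Ddx3y, as a covariate, the last was −0.76 and passed, with an adjusted p of 0.0458 by limma. In that fit 1929 of all 17744 genes passed.

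Cd8a and Cd8b1 encode the chains of the CD8 coreceptor of cytotoxic T cells, and Cd8a alone is also made by some dendritic cells. They are neighbours on chromosome 6, on the plus strand, from 71373427 to 71379173 and from 71322788 to 71337494. Cd8a had 2.50, 5.19, 6.08, 3.14 and 3.07 CPM in adult and 6.21, 5.95, 4.11, 7.69 and 1.39 CPM in saline lungs. It ranged from 2.74 to 11.1 CPM (median 4.37) after HDM and from 2.66 to 6.23 CPM (median 3.16) after HDM + Dex. All 4 groups overlapped. The log2 fold change of Cd8a was 0.05 (SE 0.30, 95% interval −0.56 to 0.66) in HDM vs. saline, −0.30 (SE 0.27) in HDM + Dex vs. HDM, −0.25 (SE 0.30) in HDM + Dex vs. saline and 0.21 (SE 0.31) in aged vs. adult, with adjusted p of 0.612 or more by limma. Without HDM replicate 6 and HDM + Dex replicate 7 the first was −0.13.

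Cd8b1 had 2.66, 4.64, 5.73, 3.24 and 3.17 CPM in adult and 4.201, 3.50, 2.18, 6.13 and 2.03 CPM in saline lungs. It ranged from 2.22 to 7.30 CPM (median 3.21) after HDM and from 1.94 to 5.31 CPM (median 3.55) after HDM + Dex. The mean of Cd8b1 was the steadiest of the members, 3.50 to 3.89 CPM over the 4 groups. Its log2 fold changes lay between −0.12 and 0.06, with 95% intervals that stayed within −0.66 and 0.58, and the lowest adjusted p by limma was 0.832.

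Eomes encodes eomesodermin, a T-box transcription factor of CD8+ T and NK cells (chromosome 9, 118478212 to 118486132, plus strand). Its adult lungs had 0.726, 2.96, 3.21, 1.78 and 1.67 CPM. The saline lungs had 2.61, 5.04, 5.22, 6.23 and 2.13 CPM, and the saline lung was the higher one in 21 of 25 pairs. In aged vs. adult Eomes had a log2 fold change of 0.77 (SE 0.28, 95% interval 0.17 to 1.36), with an unadjusted p of 0.0146 and an adjusted p of 0.304 by limma, and an unadjusted p of 0.0556 by the exact permutation test. Without adult replicate 1 it was 0.58 (adjusted p = 0.416, limma), with the covariate for 7SL share 0.53 (adjusted p = 0.521, limma), and with that for sex 1.20 (adjusted p = 0.173, limma). The annotation places Gm33460 across Eomes on the opposite strand.

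After HDM, Eomes ranged from 0.895 to 9.19 CPM with a median of 2.34 CPM, and after HDM + Dex from 1.95 to 8.92 CPM with a median of 2.51 CPM. The upper ends were again HDM replicate 6 and HDM + Dex replicate 7. In HDM vs. saline the log2 fold change was −0.41 (SE 0.35, adjusted p = 0.398, limma), and −0.65 (adjusted p = 0.0537, limma) without these 2 libraries. In HDM + Dex vs. HDM it was 0.08 (SE 0.32, adjusted p = 0.944, limma).

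Klrg1 encodes an inhibitory receptor of effector T and NK cells (chromosome 6, 122270596 to 122282882, minus strand). Its adult lungs had 0.161, 0.939, 0.683, 0.649 and 0.376 CPM, and the saline lungs had 0.318, 0.490, 0.774, 0.402 and 0.0989 CPM. It ranged from 0.201 to 1.19 CPM (median 0.802) after HDM and from 0.0928 to 1.31 CPM (median 0.503) after HDM + Dex. Several of these values are near or under the level of 3 reads. Klrg1 had a log2 fold change of 0.28 (SE 0.19, 95% interval −0.12 to 0.68) in HDM vs. saline and of −0.15 (SE 0.17) in HDM + Dex vs. HDM, with unfiltered adjusted p of 0.309 and 0.799 by limma.

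**Figure D3:**
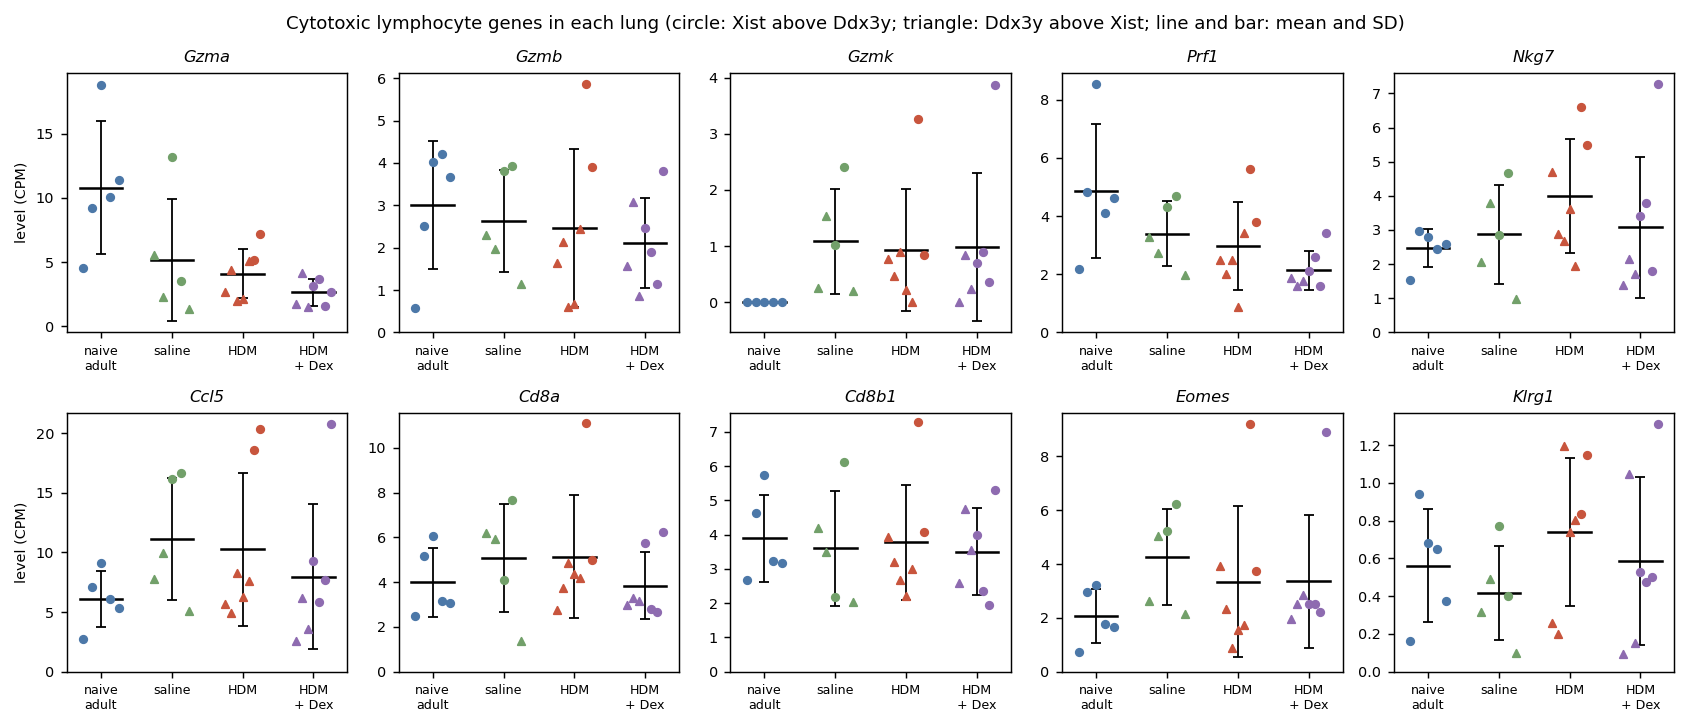
CPM of the 10 genes in each of the 24 lungs by group, with the mean and SD; circles are lungs with Xist above Ddx3y and triangles the rest. Groups overlap for every gene except Gzmk in adult and saline lungs, and HDM replicate 6 and HDM + Dex replicate 7 are often the highest points of their groups.

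Across groups, then, 0 of 10 members were without overlap in HDM vs. saline, where 7.20% of all genes in the table had none. The count was also 0 of 10 in HDM + Dex vs. HDM (0.197% of all genes) and in HDM + Dex vs. saline (2.0%).

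Levels of different members were compared per kb of annotated exon. In adult lungs Gzma had the highest mean, 10.7 CPM per kb, followed by Ccl5 at 6.33 and Nkg7 at 2.69 CPM per kb. In saline lungs Ccl5 led with 11.6 CPM per kb, followed by Gzma at 5.16 and Nkg7 at 3.14 CPM per kb. Gzmk, at 0 in adult lungs, had 0.779 CPM per kb in saline lungs, between Eomes (1.02) and Klrg1 (0.295 CPM per kb). After HDM + Dex the order was again led by Ccl5 at 8.31, ahead of Nkg7 at 3.36 and Gzma at 2.64 CPM per kb. These orders are a description and were not tested.

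Differences between 2 genes of the same library were compared as ratios, on the log2(CPM + 1) scale. Of 8 ratios in 4 comparisons, 0 of 32 tests passed by exact permutation with Benjamini-Hochberg adjustment, and 4 had an unadjusted p under 0.05. Among the 4 was that of Gzmk to Gzma in aged vs. adult, which is no ratio in the adult lungs, where Gzmk was at 0, and is given no value. Gzmb minus Gzma differed by 1.02 (p = 0.0397, exact) and Cd8a minus Cd4 by −0.86 (p = 0.0476, exact) in aged vs. adult. Cd8a minus Cd4 was 0.75 higher in HDM + Dex than in HDM lungs (p = 0.0443, exact), and these 3 differences had the same adjusted p of 0.381. Cd4 marks helper T cells and some macrophages, and its mean was 15.5 ± 6.61 CPM in HDM lungs and 8.32 ± 6.63 CPM in HDM + Dex lungs (SD, n = 7 each).

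Once group means were removed, the members varied together from lung to lung. Over 24 lungs, the Pearson r of log2(CPM + 1) was positive in 45 of 45 pairs of members, with a median of 0.65. After rescaling it was positive in 45 of 45 pairs, with a median of 0.48. The libraries share depth, 7SL share and scaling, so these values are a description. The share of positive pairs among all genes was not computed, so whether the members vary together more than other genes was not tested. Gzmk and Nkg7 had the highest r (0.868, and 0.862 after rescaling), and Gzma and Gzmk, the neighbours on chromosome 13, had the lowest (0.189, and 0.06 after rescaling). Gzmk was at 0 in every adult lung, so it varied in the 19 aged lungs only. Variation of the other gene among adult lungs brings any r with Gzmk nearer to 0. Gzmb and Prf1 had an r of 0.805.

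**Figure D4:**
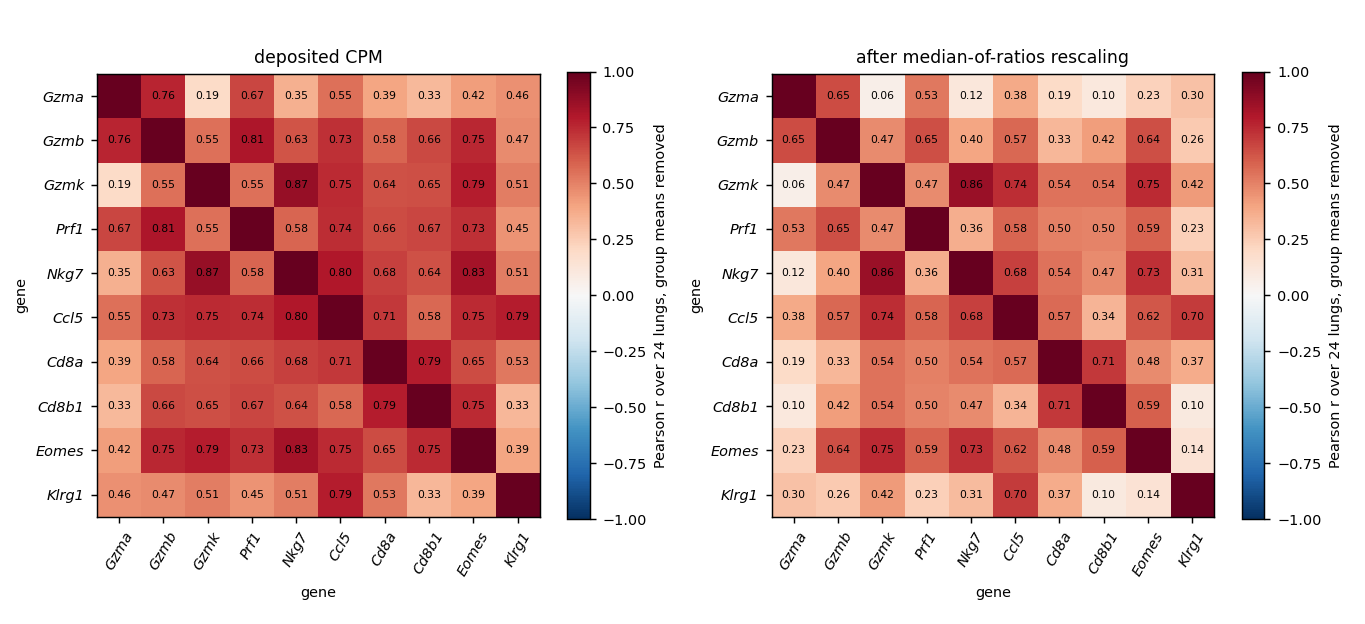
Pearson r between the 10 genes over 24 lungs after removing group means, from deposited CPM (left) and after median-of-ratios rescaling (right), in log2(CPM + 1). All 45 pairs are positive on both scales, and the palest cell is that of Gzma and Gzmk. Gzmk, at 0 in every adult lung, does not vary there.

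The gene most similar to the mean of the members over the 24 lungs was Trbc1 (r = 0.919, and 0.865 after rescaling), a constant region of the T cell receptor. It was followed by Irf8, a factor of dendritic and B cells (0.918), Lck, the T cell receptor kinase (0.911), Mto1 (0.907), Spn (0.906), Tmem229b (0.901), Mndal (0.901), Itga4 (0.901), Fnbp1 (0.900) and Zc3h12d (0.897). After rescaling 8 of these 10 were again among the 10 most similar. Among single members, Gzma was most like Klrb1c, the NK cell receptor NK1.1 (r = 0.855), Ccl5 like Irf8 (0.948), Eomes like Trbc1 (0.863) and Gzmk like Nkg7. The gene closest to Gzmb was Mto1 (0.913), to Prf1 Ipo9 (0.867), to Nkg7 Pou2f2 (0.886), to Cd8a Ripor2 (0.888), to Cd8b1 Cd7 (0.803) and to Klrg1 Ifi47 (0.812). After rescaling only Gzma, Gzmk, Cd8a and Eomes kept their closest gene. Those of the other members became Gm37694 (Gzmb), Tbx21 (Prf1), Gzmk (Nkg7), Cd4 (Ccl5), Gm5281 (Cd8b1) and Gm6201 (Klrg1).

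The markers of NK and T cells were set beside the members. Ncr1, the NK cell receptor NKp46, had 1.37, 6.47, 7.58, 4.38 and 7.53 CPM in adult and 2.79, 1.47, 3.92, 2.76 and 0.693 CPM in saline lungs. Its log2 fold change in aged vs. adult was −0.91 (SE 0.35, adjusted p = 0.320, limma), and that of Klrb1c was −0.92 (SE 0.29, adjusted p = 0.205, limma). Cd3e, a chain of the T cell receptor complex, differed the other way, by 0.78 (SE 0.35, adjusted p = 0.414, limma). None of these passed. The falls of Ncr1 and Klrb1c were not those of their list as a whole. In aged vs. adult the median log2 fold change of the 12 NK receptor genes tested was 0.08, against 0.19 for all genes. For the 12 core T cell genes it was 0.48. Age and sex are partly confounded in this comparison. The summed level of 20 NK receptor genes was 20.1 to 73.1 CPM in adult, 35.7 to 74.3 in saline, 29.95 to 69.3 in HDM and 26.3 to 44.2 CPM in HDM + Dex lungs. That of 12 core T cell genes was 39.5 to 115 CPM in adult, 66.9 to 202 in saline, 103 to 254 in HDM and 71.1 to 225 CPM in HDM + Dex lungs. The part of either cell type in the members' values was not tested.

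Within the aged groups, lungs with Xist above Ddx3y tended to the higher values. The mean of these lungs was the higher one for 10 of 10 members in saline (2 against 3 lungs), for 10 of 10 in HDM (2 against 5) and for 9 of 10 in HDM + Dex (4 against 3). Most genes leaned the same way: in the limma fit described next, 2271 of the 2305 genes called were higher in these lungs. The median log2 fold change was 0.24 for all genes and 0.68 for the 8 members in that fit. For Ccl5, the values were 16.1 and 16.7 CPM against 5.10 to 9.94 CPM in saline, and 18.6 and 20.4 CPM against 4.95 to 8.26 CPM in HDM. In HDM + Dex they overlapped, with 5.81 to 20.8 CPM against 2.60 to 6.14 CPM.

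A limma fit of the 19 aged lungs with group and this kind as terms, made after the values were seen and without genes of chromosomes X and Y, called 5 of 8 members higher where Xist was above Ddx3y, against 13.4% of 17192 genes. They were Ccl5 (log2 fold change 1.22, SE 0.19, adjusted p = 0.0115), Nkg7 (0.74, adjusted p = 0.0306), Gzmb (0.75, adjusted p = 0.0364), Prf1 (0.56, adjusted p = 0.0364) and Eomes (0.76, adjusted p = 0.0447). The 7SL share differed between the same lungs: it was 14.96% and 15.4% in the 2 HDM lungs with Xist above Ddx3y and 27.1% to 34.0% in the other 5. When the 7SL share was added as a covariate, 0 members passed by limma and 1 had an unadjusted p under 0.05. After rescaling 0 members passed and 5 had an unadjusted p under 0.05, and without HDM replicate 6 and HDM + Dex replicate 7 the counts were also 0 and 5. In each of these 3 fits at most 2 of the 17192 genes passed, so nearly all calls were lost and not those of the members alone. Ccl5 was the member nearest the threshold after rescaling (0.99, adjusted p = 0.0591, limma) and without these libraries (1.05, adjusted p = 0.0562, limma). Sex and 7SL share cannot be told apart in the HDM lungs.

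Other genes of the cytotoxic pathway were read from 7 lists of 86 genes in all (granule proteins, death ligands and their inhibitors, NK receptors, transcription factors, cytokine receptors, chemokines with their receptors, and checkpoint receptors). Of these, 79 were in the table and 62 were tested. In aged vs. adult, where 116 of all 17744 genes passed, 8 of the 62 were higher and 0 lower by limma, and after rescaling 5 were higher and 1 lower. Checkpoint receptors were higher in aged lungs in 3 of the 6 tested: Pdcd1 (PD-1), Lag3 and Cd101. The list's median log2 fold change was 1.24, against 0.19 for all genes.

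Pdcd1 had 0.323, 0.445, 0.410, 0.324 and 0.323 CPM in adult and 0.847, 3.22, 2.51, 3.07 and 1.53 CPM in saline lungs. Its log2 fold change was 1.18 (SE 0.23, adjusted p = 0.0184, limma). Lag3 had 0, 0.395, 0.205, 0.162 and 0.484 CPM in adult and 0.671, 2.66, 3.00, 3.87 and 1.19 CPM in saline lungs, a log2 fold change of 1.30 (SE 0.27, adjusted p = 0.0303, limma). Tox, a factor of exhausted CD8+ T cells and of some helper T cells, had a log2 fold change of 1.37 (SE 0.28, adjusted p = 0.0303, limma) and was the 1 of 9 transcription factors tested that passed. Tox had 0.565, 3.31, 3.62, 2.05 and 2.42 CPM in adult and 5.26, 6.79, 10.01, 9.90 and 5.44 CPM in saline lungs.

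Of 11 chemokine genes tested 3 were higher with age: Cxcl9 (log2 fold change 2.04, SE 0.41, adjusted p = 0.0240), Cxcl10 (1.11, SE 0.23, adjusted p = 0.0311) and their receptor Cxcr3 (1.37, SE 0.29, adjusted p = 0.0381), all by limma. Cxcl9, which interferon gamma induces, had 0.0494 to 0.683 CPM in adult and 1.13 to 9.95 CPM in saline lungs. The interleukin-12 receptor chain Il12rb1 was higher by 0.90 (SE 0.19, adjusted p = 0.0384, limma) and Cd101 by 1.30 (SE 0.28, adjusted p = 0.0384, limma). The adult and saline lungs overlapped in none of the 8 genes (2.90% of all genes in the table), which were chosen for passing the same comparison. Ifng itself was under the filter, with 0.162 ± 0.115 CPM in adult and 0.130 ± 0.127 CPM in saline lungs (SD, n = 5 each). By limma 0 of 9 granule proteins, 0 of 5 death ligands and 0 of 12 NK receptors passed. Of these, 3, 1 and 3 had an unadjusted p under 0.05, as did 1993 of all 17744 genes. The lowest p among granule genes was that of Srgn, the granule proteoglycan serglycin (0.98, SE 0.28, adjusted p = 0.156, limma). Srgn passed after rescaling (0.77, adjusted p = 0.0472, limma), as did the factor Lef1, which was lower with age (−0.86, adjusted p = 0.0480, limma).

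The calls with age were close to the threshold. Without adult replicate 1, 2 of the 8 genes passed by limma (Pdcd1 and Tox), with adjusted p up to 0.0810, and with the 7SL share as a covariate 1 passed (Pdcd1). With sex as a covariate, a fit in which only the 2 saline lungs with Xist above Ddx3y are set against the adult lungs, 6 passed. After rescaling 4 of the 8 passed by limma (Il12rb1, Lag3, Pdcd1 and Tox), with adjusted p up to 0.0559. Cxcl9, Cxcl10, Cxcr3 and Cd101 did not, and the 5 higher genes counted after rescaling include Srgn.

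**Figure D5:**
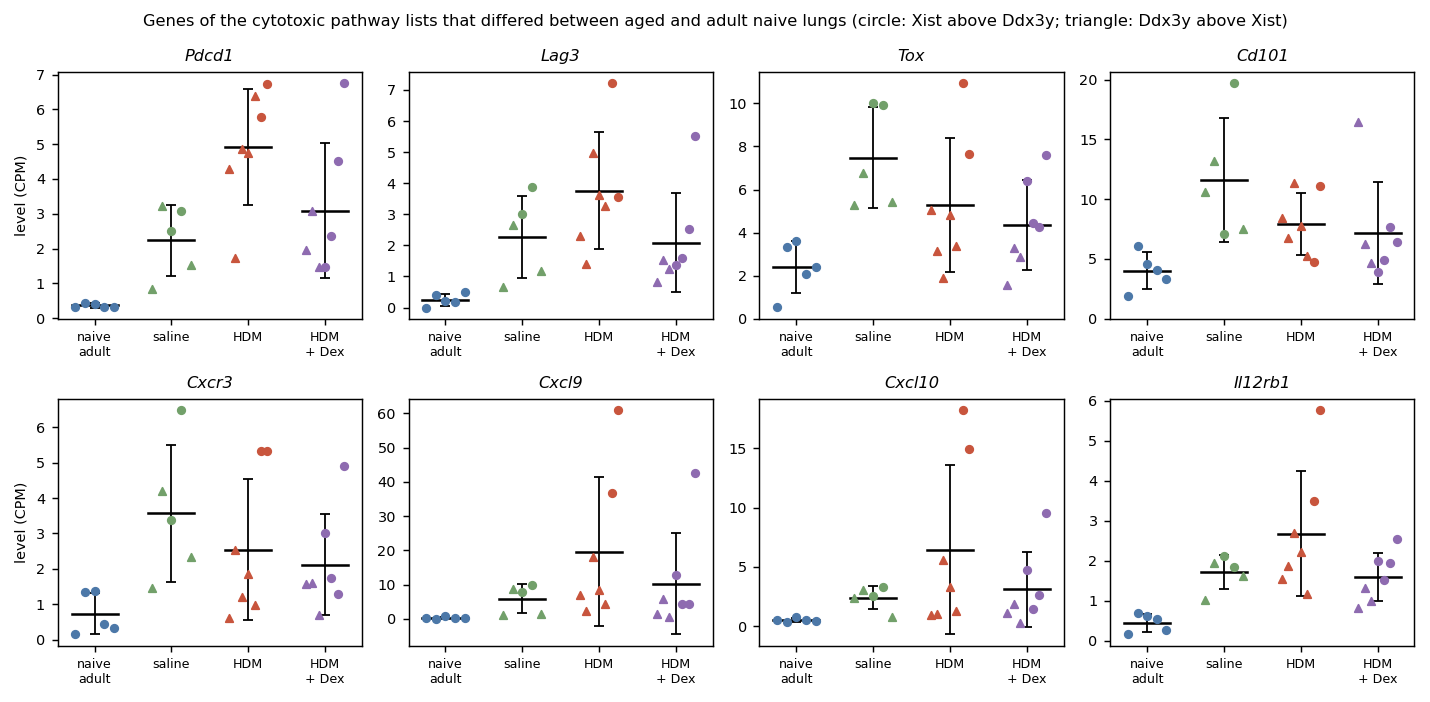
CPM of the 8 listed pathway genes that passed in aged vs. adult, in each of the 24 lungs by group, with the mean and SD; circles are lungs with Xist above Ddx3y and triangles the rest. For each gene the highest adult lung lies below the lowest saline lung.

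In HDM vs. saline, 3 of the 62 genes were higher and 5 lower by limma, but 12 were higher and 1 lower after rescaling. Of all 17744 genes, 717 were higher and 3765 lower by limma, and 1930 were higher and 2053 lower after rescaling. The share of higher genes among the 62 was thus close to that of all genes before rescaling and above it after. The share of lower genes was below that of all genes on both scales. Counted in either direction, the shares did not exceed those of all genes, of which 4482 passed, and 3983 after rescaling. These differences in share were not tested. Pdcd1 (0.88, SE 0.30, adjusted p = 0.0345) and the factor Bhlhe40 (0.62, SE 0.21, adjusted p = 0.0328) were among the 3 listed genes higher by limma. Pdcd1 had 1.74 to 6.74 CPM (median 4.87) in HDM lungs, against a median of 2.51 CPM in saline lungs. Of these 8 calls 4 held after rescaling, and 2 with a covariate for the 7SL share.

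Among the lower genes were S1pr1 (−1.09, SE 0.20, adjusted p = 0.00105), Cd226 (−0.83, SE 0.25, adjusted p = 0.0212), Lef1 (−0.59, SE 0.21, adjusted p = 0.0427) and Il18r1 (−0.51, SE 0.17, adjusted p = 0.0362), all by limma. S1pr1, a receptor for lymphocyte exit that endothelial cells also carry, was the 1 lower gene that passed after rescaling (−0.84, adjusted p = 0.00123, limma), and it was also lower in HDM + Dex than in saline lungs (−1.08, SE 0.20, adjusted p = 0.0111, limma). This last call was lost with the covariate for 7SL share (−0.71, adjusted p = 0.122, limma).

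In HDM + Dex vs. HDM, 0 of the 62 genes passed by limma, and 1 was lower after rescaling (Klrb1b, −0.73, adjusted p = 0.0358). Before rescaling 8 of the 62 had an unadjusted p under 0.05, near the share of all genes (2389 of 17744). Those with the lowest p in their lists included Klrb1b, an NK receptor (−0.68, SE 0.21, adjusted p = 0.118), Srgn (−0.56, adjusted p = 0.167), Ctsw, a cathepsin of cytotoxic cells (−0.56, adjusted p = 0.206), and Serpinb9, an inhibitor of granzyme B (−0.44, adjusted p = 0.270), all by limma. The factor Tbx21 (T-bet) differed by −0.45 (SE 0.26, adjusted p = 0.483, limma) and Fasl, a death ligand, by 0.09 (SE 0.23, adjusted p = 0.916, limma). The medians of the 7 lists lay between −0.43 and −0.10, against 0.03 for all genes.

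Markers of other cells moved in the same comparisons. In HDM vs. saline by limma, the type 1 dendritic cell genes Batf3 (1.93) and Cadm1 (−0.58), the type 2 innate lymphoid cell genes Il1rl1 (1.33) and Rora (−0.74) and the plasmacytoid dendritic cell genes Bst2 (1.09) and Tcf4 (−0.42) passed, with 1 gene of each list higher and 1 lower. The median sums of these 3 lists in deposited CPM were 215, 84.3 and 189 CPM in HDM and 251, 117 and 256 CPM in saline lungs. After rescaling, 3, 2 and 1 of their genes were higher and 0, 1 and 0 lower by limma, in the same order. The T cell gene Cd6 (0.97) was higher, and the neutrophil genes S100a8 (−1.46) and S100a9 (−1.52) and 5 of 9 lung cell genes, Scgb1a1 (−2.46) among them, were lower by limma. After rescaling, 4 of 12 core T cell genes were higher, and 1 of 5 neutrophil and 2 of 9 lung cell genes were lower. In aged vs. adult, 4 of 5 neutrophil genes were higher, led by S100a8 (2.19, adjusted p = 0.00202, limma), and their summed level was 24.4 to 80.3 CPM in adult and 79.8 to 266 CPM in saline lungs. The 4 B cell genes gave sums of 18.2 to 69.0 CPM in adult and 35.4 to 128 CPM in saline lungs. Of the mast cell, B cell and helper T cell markers tested, 0 passed by limma in any of the 4 comparisons. Their part in the members' values was not tested.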

How the data were processed

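Left lung lobes of 24 mice were sequenced. According to the study's methods the libraries were stranded mRNA libraries read from paired ends, and a Picard-STAR-limma pipeline was used, while the submitters' processing notes name FastQC, STAR, DESeq2 and mm9. The table's starts matched GRCm38 (23142 of 23276 symbols found in GENCODE M21), and handling of strand is not given in the sources used here. The authors deposited CPM (read counts scaled to library size) with a constant of 0.0001 added, which was subtracted here.

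Groups followed the labels. Log2(CPM + 1) was fitted with limma 3.58.1 in R 4.3.3 (eBayes with a mean-variance trend) for 17744 genes whose mean reached 1 CPM, the 19 aged lungs in one fit and the 10 naive lungs in another, and the step was tested on simulated data. Fits of Gzmk and Klrg1, under this mean, had no filter and covered all 23891 genes. For single values the exact permutation test was two-sided (scipy 1.17.1). Depth was estimated from the spacing of low CPM values. Since 79.9% to 84.0% of values under 20 spacings lay within 0.05 of a whole multiple, counts were not recovered, and estimated reads and their floors cover counting error only. Nothing in the labels gives the origin of replicates beyond separate lungs, so p-values measure the spread between these lungs.

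The members and the gene lists were chosen with earlier results of these data known. Named were all members in every comparison, 8 fixed lineage genes, genes of each list that passed (at most 4 per comparison) or, in part, those with the lowest p, and the genes most similar to the members. Alternatives were other pseudocounts (0.1 and 5), no filter, median-of-ratios rescaling, CPM without 7SL genes, covariates for 7SL share and sex, a replicate block, other sets of lungs and leaving out each lung. Same-numbered lungs of different groups had correlations of −0.24 to 0.41 in their deviations from group means, over 0.1 in 4 of 32 pairs, so the numbers were not taken to pair lungs. Rescaling without the filter, leaving out HDM replicate 6 and HDM + Dex replicate 7, and the fit of sex were added after seeing the data. Some genes that passed are counted but not reported here.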

Additional observations from a re-analysis of the deposited data

Results flagged for a closer look

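In 3 of 39 groups of values, 1 lung lay far above the others of its group, by the gap to the next lung relative to the range of log2(CPM + 1). Chance gives about 1 such lung in 20 groups. Gzmk had 3.87 CPM in HDM + Dex replicate 7, and the next lung of the group had 0.898 CPM. Eomes had 8.92 CPM in the same lung, against 2.86 CPM in the next. Cd8a had 11.1 CPM in HDM replicate 6, against 4.98 CPM in the next. These 2 lungs had the highest sums of core T cell genes in their groups, and the part of those cells in the values was not tested.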

How the results depend on the processing

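Of 48 counts recomputed under other settings that left out no single lung (members in each comparison, and ratios at pseudocounts of 0.1 and 5), 46 were 0. The count of members was 1 in HDM vs. saline with the 7SL share as a covariate (Nkg7) and 1 in HDM + Dex vs. saline with sex as a covariate (Ccl5). Of all 17744 genes, 1571 and 1929 passed in these fits, in the same order. Leaving out each lung in turn gave 0 to 0 for the members and for the ratios. With the replicate block 0 members passed in each comparison, while the count of all genes that passed was 5644, 8, 898 and 168 in HDM vs. saline, HDM + Dex vs. HDM, HDM + Dex vs. saline and aged vs. adult. Without the block these counts were 4482, 171, 335 and 116, and over the settings that left out no single lung they ranged from 1571 to 5680, 1 to 563, 34 to 1929 and 65 to 183.

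None of the members' log2 fold changes that turned sign had passed, and the causes were not tested. With the 7SL share as a covariate, values in HDM vs. saline turned to 0.52 (Gzma), 0.61 (Gzmb), 0.27 (Prf1), 0.83 (Ccl5) and 0.30 (Eomes), in HDM + Dex vs. saline to 0.39 (Gzmb), 0.24 (Ccl5), 0.13 (Cd8a), 0.30 (Cd8b1) and 0.23 (Eomes), in HDM + Dex vs. HDM to −0.067 (Eomes) and in aged vs. adult to −0.015 (Nkg7). Rescaling gave 0.10 for Gzma and 0.052 for Ccl5 in HDM vs. saline, 0.14 for Cd8b1 in HDM + Dex vs. saline, −0.051 for Nkg7 in aged vs. adult and, without the filter, −0.026 for Gzmk in HDM + Dex vs. HDM. CPM without 7SL genes gave 0.11, 0.042, 0.14 and −0.024 for Gzma, Ccl5, Cd8b1 and Nkg7 in these comparisons. Without HDM replicate 6 and HDM + Dex replicate 7, Cd8a and Cd8b1 were −0.13 and −0.081 in HDM vs. saline, Gzmb 0.029 in HDM + Dex vs. HDM and Nkg7 −0.16 in HDM + Dex vs. saline. The replicate block gave −0.090, −0.036 and −0.15 for Cd8a and Cd8b1 in HDM vs. saline and Nkg7 in HDM + Dex vs. saline. With sex as a covariate Eomes was −0.13 in HDM + Dex vs. HDM, Nkg7 −0.090 in HDM + Dex vs. saline and Gzmb 0.41 in aged vs. adult. At a pseudocount of 0.1 Gzmb was 0.0012 in HDM + Dex vs. HDM. Under the settings above and those without a turned sign, 310 other values kept their sign and their side of the threshold. Gzmk and Klrg1, under the filter, had values only without the filter and with lungs left out.

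Leaving out 1 lung turned the sign in 14 of 40 cases. The ranges were, in HDM vs. saline, −0.35 to 0.29 (Gzma), −0.36 to 0.062 (Gzmk), −0.25 to 0.21 (Cd8a) and −0.081 to 0.24 (Cd8b1). In HDM + Dex vs. HDM they were −0.21 to 0.15 (Gzmb), −0.24 to 0.22 (Gzmk), −0.16 to 0.072 (Cd8b1) and −0.14 to 0.32 (Eomes). In HDM + Dex vs. saline they were −0.39 to 0.066 (Gzmk), −0.18 to 0.20 (Nkg7) and −0.14 to 0.17 (Cd8b1), and in aged vs. adult −0.40 to 0.084 (Gzmb), −0.074 to 0.30 (Nkg7) and −0.30 to 0.0088 (Cd8b1). Gzma, Ccl5 and Eomes kept their sign in aged vs. adult without any single lung, at −1.48 to −0.84, 0.52 to 0.96 and 0.58 to 0.94. So did Prf1 (−0.56 to −0.17), Cd8a (0.047 to 0.51) and Klrg1 (−0.24 to −0.049). Gzmk, at 0.73 to 1.11, could not turn, since it was at 0 in every adult and above 0 in every saline lung.

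Depth limits Gzmk and Klrg1 most, whose medians over the lungs were 7 and 9.5 estimated reads.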
